A study of Mus musculus with 18 samples.

Results

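MTOB and 4-Cl-HIPP were compared directly with each other in J774.1 macrophages that lack both CTBPs. The comparison took 6 of the 18 samples of the study, namely the 3 Ctbp1/2 dKO samples given 1.5 mM MTOB for 4 h and the 3 Ctbp1/2 dKO samples given 0.25 mM 4-Cl-HIPP for 4 h, and no vehicle sample entered it. It asks in which transcripts the responses to both compounds differ when their intended target is absent. J774.1 is an adherent mouse macrophage line. MTOB (4-methylthio-2-oxobutanoate) is the keto acid of methionine and a substrate analog of CTBPs, and 4-Cl-HIPP, also a CTBP inhibitor, is a propanoic acid with a chlorophenyl ring and an oxime in place of the keto group.

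The study crossed 2 genotypes, wildtype and Ctbp1/2 dKO (Ctbp1-/-, Ctbp2-/-), with 3 treatments (vehicle, MTOB and 4-Cl-HIPP) in 3 replicates each. All 6 samples compared here carry the double knockout, which was made with CRISPR-Cas9 and propagated from single-cell outgrowths, and the number of clones behind the samples is not stated. MTOB was dissolved in PBS and 4-Cl-HIPP in DMSO, while a single PBS/DMSO vehicle group served both, so compound, dose and solvent cannot be told apart in a direct comparison. The dKO vehicle samples are quoted below as background. They show on which side of the untreated level a transcript lay and were not part of the test.

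CTBPs are corepressors that bring histone-modifying complexes to sequence-specific transcription factors and carry a dehydrogenase fold that binds NADH. Macrophages are known for several inducible programmes. NRF2, released from KEAP1 by electrophiles, induces antioxidant, glutathione and heme-degrading enzymes. NF-kB and AP-1 drive cytokines and immediate early genes, and interferons induce their target genes through the interferon-stimulated response element.

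Transcript levels are given in TPM, a length-scaled abundance that sums to about the same total in each sample, so the sequencing depth behind a value is unknown. A difference is the mean log2(TPM + 1) with MTOB minus that with 4-Cl-HIPP, which understates the change of low transcripts. A gene was called where the limma test gave an adjusted p-value (Benjamini-Hochberg) under 0.05 together with more than 1.5-fold (log2 0.585), among 16383 genes tested. Replicate samples of a group correlated with a Pearson r of 0.983 to 0.986 across genes, and samples of the different compounds with 0.979 to 0.984. The p-values measure the spread between 3 samples a group, which the methods call biological triplicates. The sample dKO MTOB replicate 1 stood apart in its top transcript, the mitochondrial mt-Atp8, with 18950 TPM against 25700 to 34210 TPM in the other 17 samples. Without it, 163 genes were called.

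Of 11 macrophage markers tested, Csf1r, Cd68, Lyz2, Tyrobp and Fcer1g were at 277 TPM or more in all 6 samples, and the monocyte coreceptor Cd14 was the only marker called between the compounds. The log2 differences of the 11 markers ran from -0.89 to 1.64, with 4 below 0. With all 18 samples in the fit, 1 marker was also called lower with MTOB. The receptor Adgre1 was low at 6.70 to 13.7 TPM. Of 12 tested markers of lymphocytes, granulocytes, dendritic cells, epithelium, fibroblasts or endothelium 0 were called, and the highest, the endothelial Cdh5, reached 1.43 TPM in any of the 6 samples. Ctbp1 RNA was at 22.0 to 25.8 TPM with MTOB and 19.7 to 31.5 TPM with 4-Cl-HIPP, a log2 difference of 0.01 (95% interval -0.44 to 0.46, adjusted p = 1.00, limma, Benjamini-Hochberg). Ctbp2 RNA, at 68.5 to 81.9 TPM over the 6 samples, differed by 0.03 (95% interval -0.16 to 0.22, adjusted p = 0.895, limma, Benjamini-Hochberg). In the 9 wildtype samples Ctbp1 RNA was at 170 to 238 TPM and Ctbp2 RNA at 87.8 to 96.9 TPM. Ctbp2 RNA was thus largely retained in the dKO samples, without overlap with wildtype. Their alleles carry premature stops and frameshifts and were checked by western blot for the proteins. In bulk RNA, fewer cells that express a transcript and less of it per cell cannot be told apart.

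Between the compounds, 233 genes (1.42% of those tested) were differentially expressed in Ctbp1/2 dKO cells, of which 148 (0.903%) were higher and 85 (0.519%) lower with MTOB than with 4-Cl-HIPP. By the adjusted p-value alone there were 527 (3.22%), 281 higher and 246 lower. Groups did not overlap in any called gene, a property shared by 22.8% of all genes tested (9.29% with MTOB above and 13.6% with MTOB below). The median absolute log2 difference of the called genes was 0.93, and the median difference over all genes was -0.02. Over all genes tested, 7238 lay above 0 and 8910 below. These counts and the 1.42% called are the background for the gene lists below. Called genes were well expressed on the whole, with 183 at a mean of 5 TPM or more. The 30 called genes with a mean normalized count under 10 are less certain, since 22 of them were listed at 0 in every sample of a group.

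**Figure D1:**
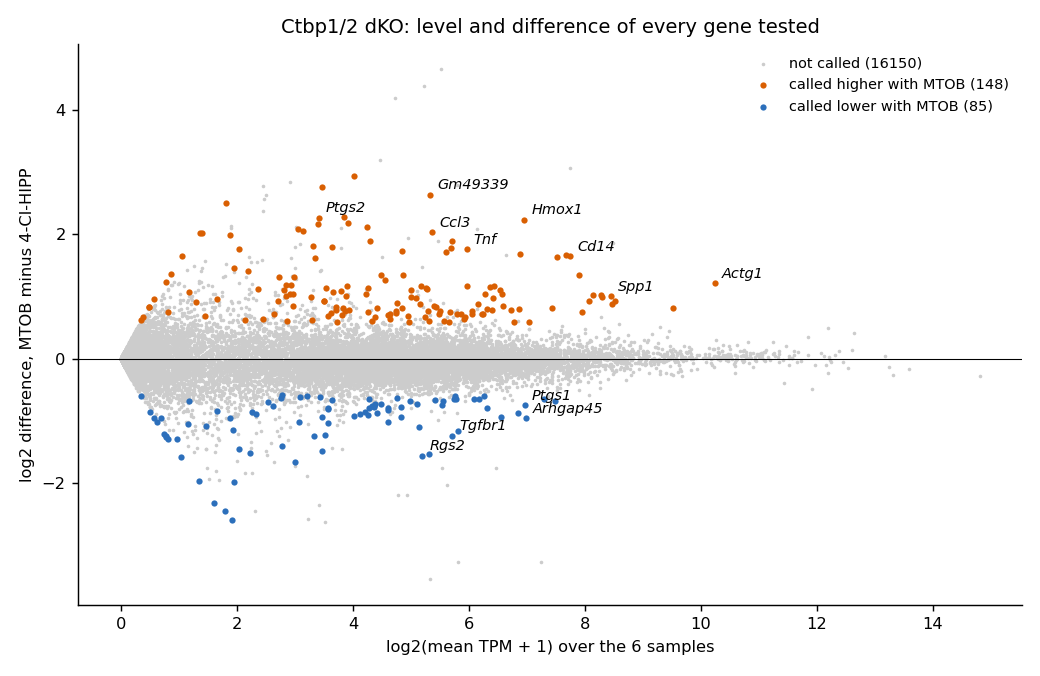
Mean level over the 6 samples (x axis, log2 of mean TPM + 1) against the log2 difference between MTOB and 4-Cl-HIPP in Ctbp1/2 dKO cells (y axis), 1 point per gene, for 16383 genes. The 148 genes called higher and 85 called lower with MTOB reach from transcripts under 1 TPM to Actg1, which averaged above 1000 TPM, and the strongest well-expressed differences lie on the MTOB side.

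By distance in TPM, the vehicle samples placed both sets differently. A vehicle mean midway by ratio counts as nearer to the lower group on this scale. That favours 4-Cl-HIPP for the higher set and MTOB for the lower set, so part of the contrast may come from the scale. Distances in log2 were not counted. For 145 of the 148 genes that were higher with MTOB, the dKO vehicle mean in TPM lay nearer to 4-Cl-HIPP than to MTOB. Of the 85 genes that were lower with MTOB, 44 had a vehicle mean nearer to 4-Cl-HIPP and 41 one nearer to MTOB. Tgfbr1, Rgs2 and B4galt1 belong to the latter and stood highest with 4-Cl-HIPP. For 57 called genes the vehicle mean lay outside the range of both compound means.

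Leaving out single samples lowered the count of calls to between 82 and 163. It was 163, 124 and 87 without dKO MTOB replicates 1, 2 and 3, and 103, 101 and 82 without dKO 4-Cl-HIPP replicates 1, 2 and 3. A core of 57 genes was called with all samples and without each of them. Some of these were listed at 0 throughout a group, such as Gm15379 (mean 0.538 TPM with MTOB) and H3c2 (mean 1.41 TPM with 4-Cl-HIPP). A group at 0 has no spread whichever sample is left out, so such calls are less certain. In what follows, a call said to be kept was kept in all 6 of these fits.

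A minority of NRF2 targets were called, and all of these were higher with MTOB. Of 25 tested members of a list of NRF2 antioxidant and heme genes, 24 lay above 0. The list median was 0.50 against -0.02 over all genes. There were 9 called higher and none lower, 36% of the list against 1.42% of all genes. By the adjusted p-value alone 18 were higher. Hmox1 (ENSMUSG00000005413, GRCm39 chr8:75820241-75827217, plus strand), which encodes the heme-cleaving heme oxygenase 1, had 211, 193 and 204 TPM with MTOB and 42.8, 37.7 and 46.7 TPM with 4-Cl-HIPP. All MTOB samples lay above all others, and the 4-Cl-HIPP samples overlapped with the vehicle samples at 41.2 to 42.8 TPM. The log2 difference of Hmox1 was 2.24 (SE 0.09, adjusted p = 0.00187, limma, Benjamini-Hochberg).

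Slc7a11, the cystine-glutamate exchanger that feeds glutathione synthesis, was at 11.5, 13.8 and 14.4 TPM with MTOB against 2.25, 2.53 and 2.47 TPM with 4-Cl-HIPP (difference 2.05, SE 0.09, adjusted p = 0.00229, limma, Benjamini-Hochberg). Txnrd1, the cytosolic thioredoxin reductase, was at 352, 383 and 391 TPM against 181, 188 and 182 TPM (difference 1.03, SE 0.05, adjusted p = 0.00229). Neither gene overlapped between the compounds, and with 4-Cl-HIPP both were close to vehicle, at 2.50 to 3.10 TPM for Slc7a11 and 187 to 211 TPM for Txnrd1. The sulfiredoxin gene Srxn1 (difference 1.17), the autophagy receptor Sqstm1 (0.93) and the glutaredoxin Glrx (1.16) were also higher with MTOB. The remaining called members were Osgin1 (1.16), an oxidative stress-induced growth inhibitor, Gclm (0.88), the modifier subunit of glutamate-cysteine ligase, and the glutathione conjugate exporter Abcc1 (0.76).

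Members below the fold limit passed the adjusted p-value alone. Both ferritin chains were among the most abundant transcripts, with Ftl1 at 5340 to 5657 TPM with MTOB and 3820 to 4017 TPM with 4-Cl-HIPP (difference 0.50, adjusted p = 0.00509, limma, Benjamini-Hochberg) and Fth1 at 6860 to 7870 and 5400 to 5542 TPM (0.41, adjusted p = 0.0263). Their groups did not overlap. Gclc, the catalytic partner of Gclm, differed by 0.39 (adjusted p = 0.0413, limma, Benjamini-Hochberg). Nqo1, a quinone reductase often used as an NRF2 readout, was low at 0.324 to 2.71 TPM and did not pass (0.95, adjusted p = 0.110).

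Slc40a1, the iron exporter ferroportin, which is no member of the list, had 11.8, 22.6 and 14.6 TPM with MTOB and 2.75, 2.00 and 3.61 TPM with 4-Cl-HIPP. Its MTOB samples varied more than those of Hmox1 but stayed above all others, and the difference was 2.17 (SE 0.28, adjusted p = 0.0250, limma, Benjamini-Hochberg). Calls for Hmox1, Slc7a11, Txnrd1, Srxn1 and Sqstm1 were kept. Glrx lost its call without MTOB replicate 2 or 3 or 4-Cl-HIPP replicate 1 or 3 (adjusted p = 0.0573 to 0.0699 by limma with Benjamini-Hochberg adjustment) and Osgin1 without MTOB replicate 2 or 3 or 4-Cl-HIPP replicate 1 or 2 (0.0530 to 0.0683). Gclm lost it when any sample other than MTOB replicate 3 was left out (0.0696 to 0.120), Slc40a1 when any other than MTOB replicate 1 was left out (0.0549 to 0.106), and Abcc1 when any of the 6 was left out (0.0508 to 0.139).

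**Figure D2:**
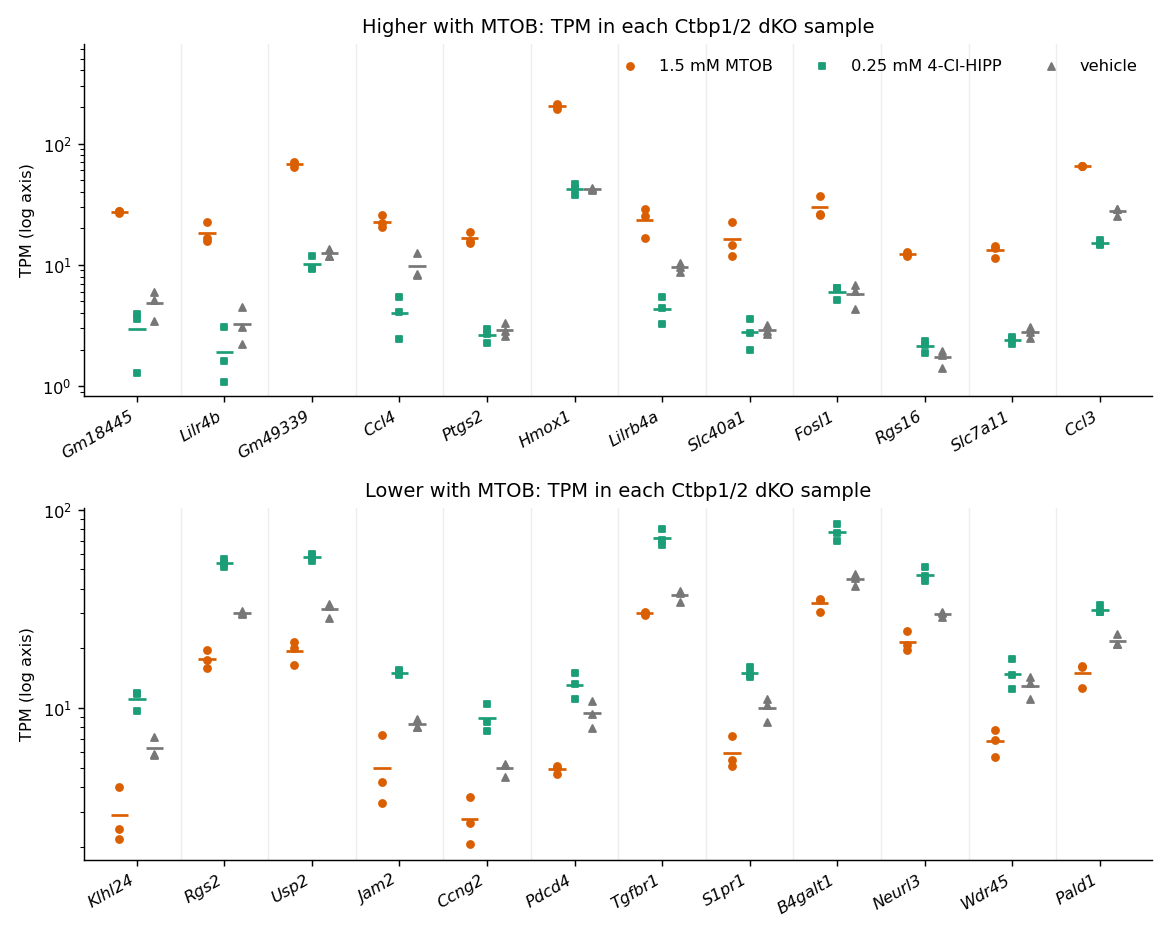
TPM (y axis, log scale) in each Ctbp1/2 dKO sample for the 12 genes with the largest differences in each direction among called genes with a mean of at least 5 TPM. Circles are MTOB, squares 4-Cl-HIPP and triangles vehicle, bars are means of 3 samples; Hmox1, Ptgs2, Fosl1, Rgs16 and Slc7a11 have 4-Cl-HIPP and vehicle points together and MTOB points above, whereas Rgs2, Usp2 and Tgfbr1 have their highest points with 4-Cl-HIPP.

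Inflammatory mediators had the highest median of the pathway lists. Of 26 tested members of a list of inflammatory cytokines, chemokines and NF-kB feedback genes, 24 lay above 0, with a median of 0.68. Among them 12 were called higher with MTOB and none lower, 46.2% against 1.42% of all genes. Tnf (ENSMUSG00000024401, GRCm39 chr17:35418357-35420983, minus strand), the prototypic macrophage cytokine, was at 90.4, 96.4 and 98.6 TPM with MTOB and 27.5, 27.5 and 27.1 TPM with 4-Cl-HIPP. The vehicle samples lay between both, at 37.6 to 42.8 TPM. The difference was 1.76 (SE 0.04, adjusted p = 0.000592, limma, Benjamini-Hochberg).

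The same order held for the neighbouring chemokine genes Ccl3 and Ccl4 on chromosome 11. Ccl3 (MIP-1 alpha) was at 64.7, 65.6 and 65.4 TPM with MTOB and 14.8, 16.0 and 14.6 TPM with 4-Cl-HIPP, against 25.5 to 28.9 TPM with vehicle (difference 2.04, SE 0.06, adjusted p = 0.000799, limma, Benjamini-Hochberg). Ccl4 (MIP-1 beta) was at 25.9, 20.5 and 22.0 TPM with MTOB and 4.12, 2.47 and 5.48 TPM with 4-Cl-HIPP (difference 2.28, SE 0.25, adjusted p = 0.0173). In both genes every MTOB sample lay above and every 4-Cl-HIPP sample below every vehicle sample. Ccl9, a chemokine abundant in macrophages, was at 278, 319 and 332 TPM against 96.2, 98.9 and 94.3 TPM (difference 1.67, adjusted p = 0.00229).

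Ptgs2, the inducible cyclooxygenase, was at 15.3, 18.6 and 15.7 TPM with MTOB and 2.68, 2.95 and 2.29 TPM with 4-Cl-HIPP, which overlapped with vehicle at 2.59 to 3.32 TPM (difference 2.27, SE 0.11, adjusted p = 0.00229, limma, Benjamini-Hochberg). Spp1 (osteopontin) differed by 1.00 and the adhesion molecule Icam1 by 0.88. Genes that restrain NF-kB were higher as well, namely Nfkbia (0.85) and Nfkbie (1.04), which encode inhibitors that hold NF-kB in the cytoplasm, and the deubiquitinase Tnfaip3 (0.68). Nfkb2, the p100 precursor, differed by 0.61, and its partner Relb by 0.68 without passing (adjusted p = 0.0771, limma, Benjamini-Hochberg).

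Cd14, the lipopolysaccharide coreceptor, was at 322, 329 and 324 TPM with MTOB and 91.6 to 120 TPM with 4-Cl-HIPP, with vehicle between them at 135 to 149 TPM (difference 1.64, SE 0.10, adjusted p = 0.00408, limma, Benjamini-Hochberg). Stap1, a myeloid adaptor protein, was at 167, 183 and 185 TPM against 54.5, 56.6 and 53.6 TPM (difference 1.68, SE 0.05, adjusted p = 0.000799). Calls for Tnf, Ccl3, Ccl9, Ptgs2, Spp1, Icam1, Nfkbia, Cd14 and Stap1 were kept. That for Nfkb2 fell below the fold limit without 4-Cl-HIPP replicate 3 (difference 0.57), and Ccl4 lost its call when any MTOB sample or 4-Cl-HIPP replicate 1 was left out (adjusted p = 0.0564 to 0.0814 by limma with Benjamini-Hochberg adjustment). Nfkbie (0.0504 to 0.142) and Tnfaip3 (0.0608 to 0.121) lost theirs when any of the 6 samples was left out.

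Immediate early genes of the AP-1 and ERK feedback group were higher in part. Of 24 tested, 17 lay above 0, 7 were called higher and none lower, and the median was 0.25. The called share was 29.2% against 1.42% of all genes. Fosl1, an AP-1 subunit, was at 37.1, 26.5 and 25.9 TPM with MTOB and 6.47, 6.43 and 5.15 TPM with 4-Cl-HIPP, the latter within the vehicle range of 4.30 to 6.85 TPM (difference 2.12, SE 0.17, adjusted p = 0.00804, limma, Benjamini-Hochberg). Ier3 (1.82), Junb (0.79), Ier2 (0.77), Fos (0.60) and the dual-specificity phosphatases Dusp2 (0.72) and Dusp4 (0.70), which switch off MAP kinases, were also called. Egr1 was at or below 0.139 TPM in all 6 samples. Jun and Jund had negative differences of -0.26 and -0.66 without passing (adjusted p = 0.225 and 0.0868).

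The Fosl1 call was kept, and the other calls of this group were not. Ier3 lost its call without MTOB replicate 2 or 3 or 4-Cl-HIPP replicate 1 (adjusted p = 0.0504 to 0.0546 by limma with Benjamini-Hochberg adjustment), Dusp4 when any sample other than MTOB replicate 1 was left out (0.0687 to 0.0914) and Junb when any other than 4-Cl-HIPP replicate 1 was left out (0.0550 to 0.0808). Ier2 lost it when any other than MTOB replicate 2 was left out (0.0998 to 0.164), and Fos (0.0530 to 0.0956) and Dusp2 (0.0805 to 0.130) when any of the 6 was left out.

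Interferon-stimulated genes were the longest list. Of 52 tested, 48 lay above 0, 9 were called higher with MTOB and none lower, and the median was 0.41. Calls thus made up 17.3% of the list, against 1.42% of all genes. Isg15, the ubiquitin-like interferon effector, was at 30.2, 27.7 and 34.9 TPM with MTOB and 10.5, 13.9 and 10.6 TPM with 4-Cl-HIPP (difference 1.34, SE 0.16, adjusted p = 0.0194, limma, Benjamini-Hochberg). Its deconjugating protease Usp18 was at 46.4, 43.5 and 57.7 TPM against 19.9, 23.1 and 20.8 TPM (difference 1.17, SE 0.13, adjusted p = 0.0161). The vehicle samples had Isg15 at 23.3, 11.5 and 21.2 TPM, so that dKO vehicle replicate 2 lay among the 4-Cl-HIPP samples and the other two lay between the compounds. For Ifi207, by contrast, all 3 vehicle samples lay between the compounds, at 8.17 to 9.70 TPM.

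The RNA-binding effectors Ifit1 and Ifit3 differed by 1.41 and 1.76, the radical SAM enzyme Rsad2 (viperin) by 1.31 and the chemokine Cxcl10 by 1.79. Cxcl10 was at 17.0, 20.9 and 16.8 TPM with MTOB and 3.29, 6.12 and 4.55 TPM with 4-Cl-HIPP (SE 0.22, adjusted p = 0.0213, limma, Benjamini-Hochberg), without overlap. The GTPase Irgm1 (0.76), the Schlafen family member Slfn5 (0.93) and the DNA-sensor family member Ifi207 (1.13) completed the calls. The transcription factor gene Irf7 did not pass (0.56, adjusted p = 0.113).

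None of these 9 calls was kept when samples were left out. The list held 6, 3 and 1 calls without MTOB replicates 1, 2 and 3, and 0, 4 and 0 calls without 4-Cl-HIPP replicates 1, 2 and 3. Of the 9, only Usp18, Ifit3 and Ifi207 kept their call without MTOB replicate 1, so the 6 include members outside the 9. Usp18 lost its call when any 4-Cl-HIPP sample was left out (limma with Benjamini-Hochberg adjustment, adjusted p = 0.0658 to 0.0831). Isg15, Irgm1, Slfn5 and Cxcl10 lost theirs when any sample other than 4-Cl-HIPP replicate 2 was left out (0.0502 to 0.110), Ifit1 and Rsad2 when any other than MTOB replicate 2 was left out (0.0505 to 0.0847), and Ifit3 and Ifi207 when any other than MTOB replicate 1 was left out (0.0589 to 0.121). With the 12 inhibitor-treated samples of both genotypes in the fit, 15 members were called, and with all 18 samples 16. With genes restricted to those whose mean normalized count reached 10, a setting added after the data were seen, there were 14.

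The promoters of the members that moved together are shown for the binding motifs named above. The 250 bases before the start site were taken from RefSeq (GRCm38.p6), which held a promoter for 10437 of 16358 tested symbols. They were searched on both strands for the interferon-stimulated response element (GAAA, NN, GAAA), the kB site (GGGA, N, TT, N, CC), the AP-1 site TGANTCA and the antioxidant response element core TGACNNNGC, where N is any base. The first of these was present in 3.28% of all promoters, in 11.7% of those of genes called higher with MTOB and in 3.23% of those called lower. It was found in 22 of 40 promoters of the interferon list (55.0%) and in 8 of 8 of its called members, with no entry for Usp18. A match is a description of the letters and not a binding site.

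Isg15 (chr4:156200819-156201068, minus strand) and Ifit1 (chr19:34640639-34640888, plus strand) show the interferon motif in overlapping or repeated form. Isg15 has 3 overlapping matches within 78 bases of the start and Ifit1 has 2 matches on the opposite strand. Cxcl10 (chr5:92348890-92349139, minus strand), a member of both the interferon and the inflammatory list, has a match to each of the 4 motifs, and its AP-1 match lies within its antioxidant core match. Capitals mark the matches, and each sequence runs 5′ to 3′ towards the start site.
Isg15: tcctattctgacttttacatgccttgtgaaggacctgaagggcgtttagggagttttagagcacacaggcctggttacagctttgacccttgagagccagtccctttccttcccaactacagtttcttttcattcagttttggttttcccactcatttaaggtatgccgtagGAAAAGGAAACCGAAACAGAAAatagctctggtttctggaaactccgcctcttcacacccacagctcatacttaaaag
Ifit1: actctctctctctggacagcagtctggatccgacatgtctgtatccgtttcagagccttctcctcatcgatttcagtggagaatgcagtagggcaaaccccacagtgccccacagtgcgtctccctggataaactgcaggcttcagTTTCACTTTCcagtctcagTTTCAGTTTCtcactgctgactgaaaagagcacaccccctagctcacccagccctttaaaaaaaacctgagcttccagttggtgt
Cxcl10: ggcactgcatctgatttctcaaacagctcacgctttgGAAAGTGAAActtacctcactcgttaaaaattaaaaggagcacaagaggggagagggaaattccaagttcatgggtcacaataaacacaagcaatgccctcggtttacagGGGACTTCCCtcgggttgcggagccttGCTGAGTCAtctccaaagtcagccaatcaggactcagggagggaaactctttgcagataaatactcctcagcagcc

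The kB site occurred in 1.41% of all promoters, 5.83% of those called higher, 1.61% of those called lower and 5 of 18 promoters of the inflammatory list (27.8%). Nfkbia (chr12:55492648-55492897, minus strand) is shown as a called feedback gene whose kB match lies 29 to 20 bases before the start, followed by a match to the antioxidant core.
Nfkbia: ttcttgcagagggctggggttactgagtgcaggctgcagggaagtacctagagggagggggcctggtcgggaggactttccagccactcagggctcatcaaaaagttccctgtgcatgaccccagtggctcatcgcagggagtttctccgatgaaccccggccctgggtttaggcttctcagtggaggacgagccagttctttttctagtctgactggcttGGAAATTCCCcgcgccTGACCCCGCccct

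The AP-1 site was present in 5.58% of all promoters, 13.6% of those called higher and 8.06% of those called lower. It was found in 0 of 17 promoters of the AP-1, EGR and ERK feedback list, 4 of 20 of the NRF2 list, 7 of 18 of the inflammatory list and 10 of 40 of the interferon list. The antioxidant core was present in 13.7% of all promoters, 16.5% of those called higher and 14.5% of those called lower. It was found in 4 of 20 promoters of the NRF2 list, 3 of 18 of the inflammatory list and 10 of 40 of the interferon list. Its positions in Gclm (chr3:122245307-122245556, plus strand), 1 of 2 called NRF2 members with a match, are shown in capitals.
Gclm: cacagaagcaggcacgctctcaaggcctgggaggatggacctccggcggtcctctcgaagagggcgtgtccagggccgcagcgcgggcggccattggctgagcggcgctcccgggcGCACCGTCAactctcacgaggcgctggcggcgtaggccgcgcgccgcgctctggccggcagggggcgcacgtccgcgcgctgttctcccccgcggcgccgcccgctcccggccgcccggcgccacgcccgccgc

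**Figure D3:**
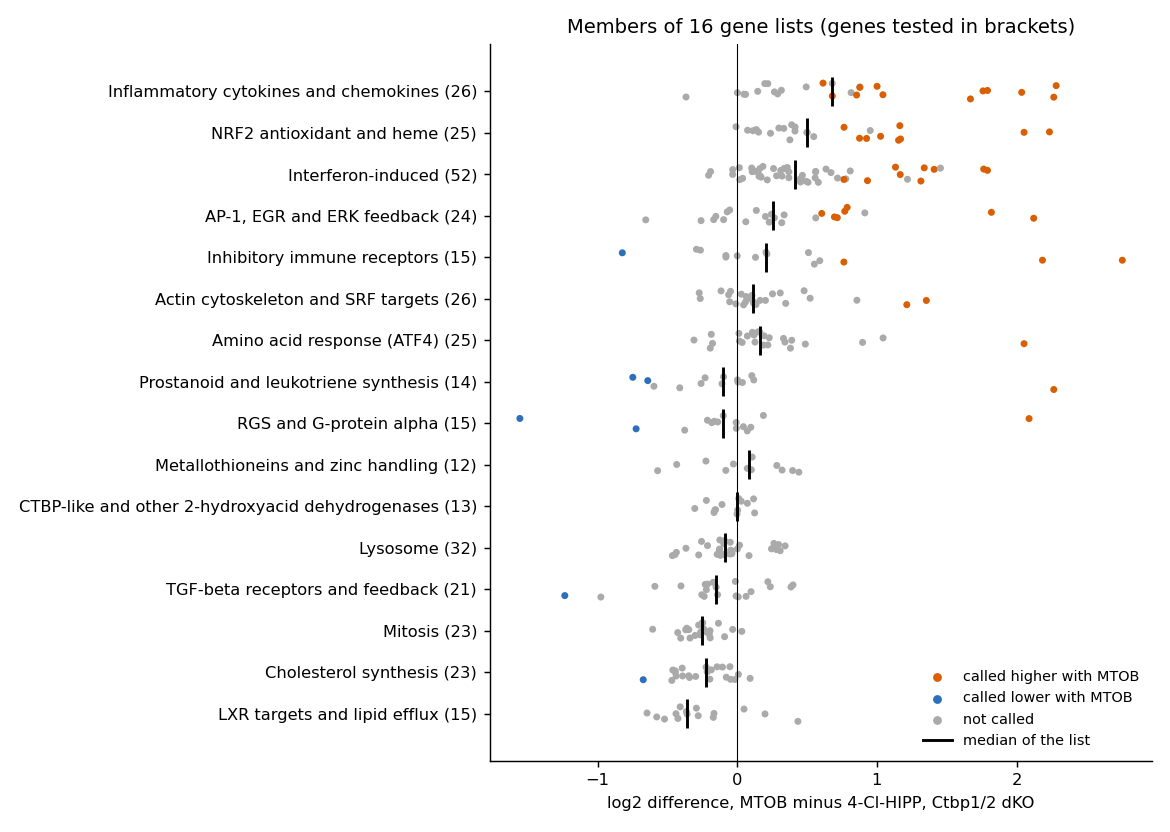
Log2 difference between MTOB and 4-Cl-HIPP in Ctbp1/2 dKO cells (x axis) for each tested member of 16 gene lists, with the list median as a vertical bar and vertical scatter only for display. The inflammatory, NRF2 and interferon lists have medians of 0.68, 0.50 and 0.41 and only calls on the MTOB side, whereas the mitosis, cholesterol and LXR lists have medians of -0.25, -0.22 and -0.36.

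Among surface receptors, the leading differences came from the Lilrb4 locus on chromosome 10. Gm49339 (ENSMUSG00000062593, GRCm39 chr10:51356708-51372709, plus strand) was at 69.1, 70.9 and 63.8 TPM with MTOB and 9.39, 11.8 and 9.21 TPM with 4-Cl-HIPP, against 11.9 to 13.4 TPM with vehicle (difference 2.64, SE 0.11, adjusted p = 0.00187, limma, Benjamini-Hochberg). Its gene model spans those of the inhibitory receptors Lilr4b (Lilrb4b, chr10:51356728-51362799), with a difference of 2.76, and Lilrb4a (chr10:51367027-51372707), with 2.19. The 3 overlap, so reads could have been divided among them and they count as a single locus. Lilr4b lost its call without MTOB replicate 2 or 3 or 4-Cl-HIPP replicate 1 or 2 (adjusted p = 0.0508 to 0.0815 by limma with Benjamini-Hochberg adjustment) and Lilrb4a when any sample other than MTOB replicate 2 was left out (0.0633 to 0.0926), while the Gm49339 call was kept.

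Of 15 tested inhibitory immune receptors, 3 (Pdcd1, Lilrb4a and Lilr4b) were higher and 1 (Havcr2) lower with MTOB, with a median of 0.21. These calls made up 26.7% of the list, against 1.42% of all genes. Lilrb4a and Lilr4b belong to the single locus above, so they are not separate evidence. Pdcd1 (PD-1) was at 49.2, 47.8 and 47.4 TPM with MTOB and 28.2, 29.5 and 26.2 TPM with 4-Cl-HIPP, both above the vehicle samples, of which the highest had 20.3 TPM (difference 0.76, SE 0.06, adjusted p = 0.00761, limma, Benjamini-Hochberg). Havcr2 (TIM-3) went the other way, at 17.7, 15.5 and 16.1 TPM against 32.9, 27.9 and 29.0 TPM, with MTOB at the vehicle level of 16.5 to 17.5 TPM (difference -0.82, SE 0.09, adjusted p = 0.0155). The Pdcd1 call was kept and that of Havcr2 was lost without MTOB or 4-Cl-HIPP replicate 2 or 3 (adjusted p = 0.0578 to 0.0785). Gm18445, an unprocessed pseudogene on the chromosome that also carries Ifi207 (GRCm39 chr1:173814492-173829538, minus strand), had the largest difference of all called genes, 28.1, 27.7 and 26.8 TPM against 1.29, 3.60 and 3.94 TPM (2.93, SE 0.32, adjusted p = 0.0170). A pseudogene can share reads with its parent gene, so its level is uncertain, and its call was lost when any sample other than 4-Cl-HIPP replicate 1 was left out (adjusted p = 0.0566 to 0.0806).

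An actin transcript was the most abundant among the calls. Actg1, cytoplasmic gamma-actin, was at 1708, 1669 and 1709 TPM with MTOB and 743, 723 and 725 TPM with 4-Cl-HIPP, with vehicle at 783 to 837 TPM. The log2 difference was 1.21 (SE 0.02, adjusted p = 0.000334 by limma with Benjamini-Hochberg adjustment) and had the smallest p-value of all genes named here. Actb, beta-actin, was at 4069 to 4212 TPM against 3184 to 3354 TPM, a difference of 0.35 (adjusted p = 0.00880) that stayed under the fold limit. Of 26 members of an actin and SRF target list, Actg1 and the MARCKS-like protein gene Marcksl1 (1.35) were called, 7 passed the adjusted p-value alone, all upward, and the median was 0.11. The calls for Actg1 and Marcksl1 were kept.

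Regulators of G-protein signalling differed in both directions. Rgs2, which shortens Gq signalling, was at 19.6, 15.9 and 17.4 TPM with MTOB and 56.5, 53.3 and 51.4 TPM with 4-Cl-HIPP, on either side of the vehicle samples at 29.8 to 30.8 TPM (difference -1.56, SE 0.09, adjusted p = 0.00374, limma, Benjamini-Hochberg). Its paralog Rgs16 had the opposite sign, at 12.9, 12.3 and 11.9 TPM against 2.20, 1.88 and 2.35 TPM (difference 2.09, SE 0.10, adjusted p = 0.00229). With 4-Cl-HIPP, Rgs16 overlapped with vehicle. Of 15 tested RGS and G-protein alpha genes, Rgs16 was called higher, Rgs2 and Gna15 (-0.73) lower, and the median was -0.10. The calls for Rgs2 and Rgs16 were kept, and Gna15 lost its call when MTOB replicate 3 or any 4-Cl-HIPP sample was left out (adjusted p = 0.0860 to 0.112).

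Tgfbr1 (ENSMUSG00000007613, GRCm39 chr4:47353134-47414931, plus strand), the type I TGF-beta receptor, was at 30.1, 30.7 and 29.4 TPM with MTOB and 79.6, 66.8 and 70.5 TPM with 4-Cl-HIPP. The vehicle samples, at 34.2 to 39.1 TPM, lay just above the MTOB samples and far below the 4-Cl-HIPP samples. The difference was -1.24 (SE 0.07, adjusted p = 0.00357, limma, Benjamini-Hochberg). Tgfbr1 was the only call among 21 tested TGF-beta receptor and feedback genes, whose median was -0.15. The SMAD corepressor Ski passed the adjusted p-value alone (-0.40, adjusted p = 0.0399), and Pmepa1, a SMAD-binding feedback gene at 20.4 to 35.1 TPM with MTOB and 48.3 to 72.3 TPM with 4-Cl-HIPP, did not pass (-0.98, 95% interval -1.61 to -0.35, adjusted p = 0.123).

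Among the other genes that were lower with MTOB, Usp2, a deubiquitinase, was at 16.6, 21.5 and 20.1 TPM against 58.2, 59.6 and 55.0 TPM, with vehicle between them at 28.5 to 33.3 TPM (difference -1.53, SE 0.10, adjusted p = 0.00509, limma, Benjamini-Hochberg). B4galt1, a galactosyltransferase, was at 35.1, 30.7 and 35.6 TPM against 85.3, 69.6 and 76.0 TPM (difference -1.16, SE 0.10, adjusted p = 0.00880). The largest negative difference at a mean of at least 5 TPM was that of Klhl24, a substrate adaptor of ubiquitin ligases, at 2.44, 4.00 and 2.19 TPM against 9.62, 11.8 and 11.9 TPM (difference -1.66, SE 0.20, adjusted p = 0.0199). In these 3 genes no MTOB sample reached the lowest 4-Cl-HIPP sample.

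Called likewise were the junctional adhesion molecule Jam2 (-1.49), the translation inhibitor Pdcd4 (-1.25), the sphingosine-1-phosphate receptor S1pr1 (-1.22), the ubiquitin ligase gene Neurl3 (-1.09), the autophagy factor Wdr45 (-1.03) and Pald1 (-1.02). Arhgap45, a GTPase-activating protein, was at 78.3, 91.6 and 85.2 TPM against 167, 168 and 164 TPM (difference -0.96, SE 0.06, adjusted p = 0.00411, limma, Benjamini-Hochberg). Emp1, a tetraspan membrane protein (-0.88), and the formin Fmnl3 (-0.67) were among the smallest p-values on this side. Angptl2, a secreted angiopoietin-like protein, differed by -0.65, whereas Angpt2 (0.32, 95% interval -0.58 to 1.21) did not pass.

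Calls for Usp2, Arhgap45, Emp1, Fmnl3 and Tgfbr1 were kept. B4galt1 lost its call without 4-Cl-HIPP replicate 3 (adjusted p = 0.0583 by limma with Benjamini-Hochberg adjustment), and Pdcd4 without MTOB replicate 2 or 3 or 4-Cl-HIPP replicate 3 (0.0581 to 0.0746). Klhl24 lost it when any sample other than MTOB replicate 2 was left out (0.0636 to 0.0999), Jam2 and S1pr1 when any other than MTOB replicate 3 was left out (0.0548 to 0.164), Neurl3 and Pald1 when any other than MTOB replicate 1 was left out (0.0504 to 0.0784), Angptl2 when any other than 4-Cl-HIPP replicate 2 was left out (0.0743 to 0.122), and Wdr45 when any of the 6 was left out (0.0770 to 0.150).

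Sterol and cell-cycle lists lay below 0 with few calls. Over all 16383 genes tested, 8910 lay below 0 and 1.42% were called. Of 23 tested cholesterol synthesis genes, 21 lay below 0, Mvd was called lower and 9 passed the adjusted p-value alone, all downward, with a median of -0.22. Mvd, mevalonate pyrophosphate decarboxylase, was at 23.5, 24.6 and 21.7 TPM with MTOB and 39.2, 35.7 and 38.2 TPM with 4-Cl-HIPP, against 26.8 to 28.7 TPM with vehicle (difference -0.67, SE 0.07, adjusted p = 0.0141, limma, Benjamini-Hochberg). The call was lost when MTOB replicate 3 or any 4-Cl-HIPP sample was left out (0.0507 to 0.0738). Hmgcs1 differed by -0.47 (adjusted p = 0.0242) and Sqle by -0.45 (adjusted p = 0.0352).

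Of 15 LXR target and lipid efflux genes, 12 lay below 0 and 0 were called, with Scd2 at -0.58 (adjusted p = 0.0349, limma, Benjamini-Hochberg) and Mylip at -0.43 (adjusted p = 0.0375) passing the adjusted p-value alone. Of 23 mitosis genes, 22 lay below 0 and 0 were called, with a median of -0.25. Ccna2, Ccnf, Cdc20 and Top2a passed the adjusted p-value alone at -0.37, -0.43, -0.34 and -0.26. Of 24 DNA replication genes, 18 lay below 0, against 8910 of all 16383 genes, and 0 were called. Mcm6 (-0.33) and Mcm7 (-0.30) passed the adjusted p-value alone. Ccng2, a cyclin linked to cell-cycle exit, was the only call among 10 CDK inhibitors and D and G cyclins, at 2.07, 3.54 and 2.63 TPM against 10.5, 7.61 and 8.53 TPM (difference -1.41, SE 0.19, adjusted p = 0.0286), and lost it when any of the 6 samples was left out (0.0516 to 0.116). Cdkn1a (p21) and Ccnd1 differed in the other direction by 0.43 and 0.36 (adjusted p = 0.0136 and 0.0300).

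Prostanoid synthesis was split between its cyclooxygenases. Whereas the inducible Ptgs2 was higher with MTOB, the constitutive Ptgs1 was at 88.1, 98.5 and 89.5 TPM with MTOB and 166, 154 and 146 TPM with 4-Cl-HIPP, with vehicle at 141 to 148 TPM (difference -0.75, SE 0.07, adjusted p = 0.0112, limma, Benjamini-Hochberg). Alox5, which opens leukotriene synthesis, was at 44.2, 41.7 and 36.9 TPM against 66.1, 65.3 and 61.4 TPM (difference -0.64, SE 0.08, adjusted p = 0.0211). These 3 were the calls among 14 tested genes of the pathway, and the list median was -0.10. Ptgs1 lost its call without MTOB replicate 3 or 4-Cl-HIPP replicate 2 (adjusted p = 0.0612 to 0.0633), and Alox5 when any sample other than MTOB replicate 1 was left out (0.0523 to 0.101).

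MTOB is the last intermediate of methionine salvage. Of 26 tested methionine salvage and cycle genes, 1 was called (3.85% against 1.42% of all genes). None was higher, and Bckdha, a subunit of the branched-chain keto acid dehydrogenase, was lower (-0.76, SE 0.09, adjusted p = 0.0183, limma, Benjamini-Hochberg). It was at 14.4, 13.0 and 15.1 TPM with MTOB and 22.9, 24.5 and 26.8 TPM with 4-Cl-HIPP, and its call was lost when any of the 6 samples was left out (0.0545 to 0.0911). Bcat1, the cytosolic branched-chain aminotransferase, passed the adjusted p-value alone (0.42, adjusted p = 0.00537), and the salvage enzymes Mtap and Adi1 differed by 0.04 and 0.00 (adjusted p = 0.743 and 1.00). Among 13 dehydrogenases of the CTBP fold and related enzymes 0 were called, and the median was 0.00. Phgdh, phosphoglycerate dehydrogenase, was at 365, 315 and 349 TPM with MTOB and 327, 350 and 302 TPM with 4-Cl-HIPP, with full overlap.

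Of 25 tested members of the amino acid response through ATF4, only Slc7a11, which is also in the NRF2 list, was called, and the median was 0.16. That is 4% against 1.42% of all genes. Of the 25, 21 lay above 0, against 7238 of all 16383 genes, and 3 passed the adjusted p-value alone, all upward. With all 18 samples in the fit, 3 members were called higher. Asns, asparagine synthetase, differed by 0.23 (adjusted p = 0.219, limma, Benjamini-Hochberg), Ddit3 (CHOP) by 0.16 (adjusted p = 0.500) and Atf4 itself by 0.19 (adjusted p = 0.0833). The median of 20 aminoacyl-tRNA synthetases was 0.05, with 0 called. Of 12 metallothionein and zinc genes 0 were called, and Mt2, at 60.7 to 81.1 TPM with MTOB and 82.6 to 107 TPM with 4-Cl-HIPP, lay above the vehicle level of 40.3 to 52.0 TPM in all 6 samples (difference -0.43, 95% interval -0.80 to -0.07, adjusted p = 0.211). Mt1 differed by -0.08 (95% interval -0.25 to 0.08, adjusted p = 0.593).

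No member was called in 6 further lists, for which the count at an adjusted p-value below 0.05 alone follows. These were 1 of 20 glycosaminoglycan synthesis genes, 2 of 32 lysosome genes, 4 of 19 glycolysis entries, 0 of 20 unfolded protein response genes, 2 of 14 cytosolic chaperones and 1 of 10 KLF factors. The share over all genes tested was 3.22%. The KLF differences ran from -0.82 to 0.40, and 2 KLF factors were called lower in wildtype cells. With all 18 samples in the fit, 2 KLF factors were called lower and 1 cytosolic chaperone higher. Slc2a1 (GLUT1) came nearest to the fold limit in glycolysis, at 0.54 (adjusted p = 0.00880, limma, Benjamini-Hochberg), while Hk1 differed by -0.39 (adjusted p = 0.00724). Xylt1, a xylosyltransferase labelled by the study, differed by 0.00 (95% interval -0.24 to 0.24). Of 17 BCL2 family genes, the anti-apoptotic Bcl2a1d was called higher (1.04, SE 0.11, adjusted p = 0.0155), a call that was lost without MTOB or 4-Cl-HIPP replicate 2 or 3 (0.0565 to 0.0752). Its relatives Bcl2a1a (1.04, 95% interval -0.15 to 2.24) and Bcl2a1b (0.89, 95% interval 0.46 to 1.33) had similar differences without a call. Whether reads were divided among them was not tested. By the adjusted p-value alone, 4 members of the family were higher and 1 lower. Of 18 genes that the study labelled in plots of its own results for both compounds in this series, a choice that is no independent evidence, 10 were called higher and 4 lower. The pathway and marker lists together held 53 of the 233 calls, 29.7% of the higher and 10.6% of the lower ones.

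The same contrast in wildtype cells used 6 other samples and the same test. There 302 genes (1.84%) were called, 190 higher (1.16%) and 112 lower (0.684%) with MTOB. Of the calls, 124 were shared in the same direction, 53.2% of the dKO calls and 41.1% of the wildtype calls, and 0 were called in opposite directions. Of the 233 dKO genes, 212 had the same sign in wildtype cells. As a description across genes, which are not independent, the differences of both genotypes correlated with a Pearson r of 0.363 over all 16383 genes and of 0.515 over 9773 genes with a mean of at least 5 TPM. In the direction of the dKO difference, the called genes had a median of 0.93 in dKO and 0.77 in wildtype cells, where the selection in dKO favours the former.

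The leading genes differed between the compounds in wildtype cells too, with log2 differences of 2.12 for Hmox1, 1.75 for Tnf, 1.92 for Ccl3, 1.26 for Actg1, 1.79 for Stap1, -1.67 for Rgs2 and -1.17 for Tgfbr1. The NRF2 list had 9 calls in each genotype and a wildtype median of 0.37. The interferon list had 18 calls and a median of 0.73 in wildtype cells against 9 and 0.41 in dKO cells, and the inflammatory list 7 and 0.53 against 12 and 0.68. Apart from Rsad2 and Nfkb2, no member of these 3 lists passed the test of the difference between genotypes.

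**Figure D4:**
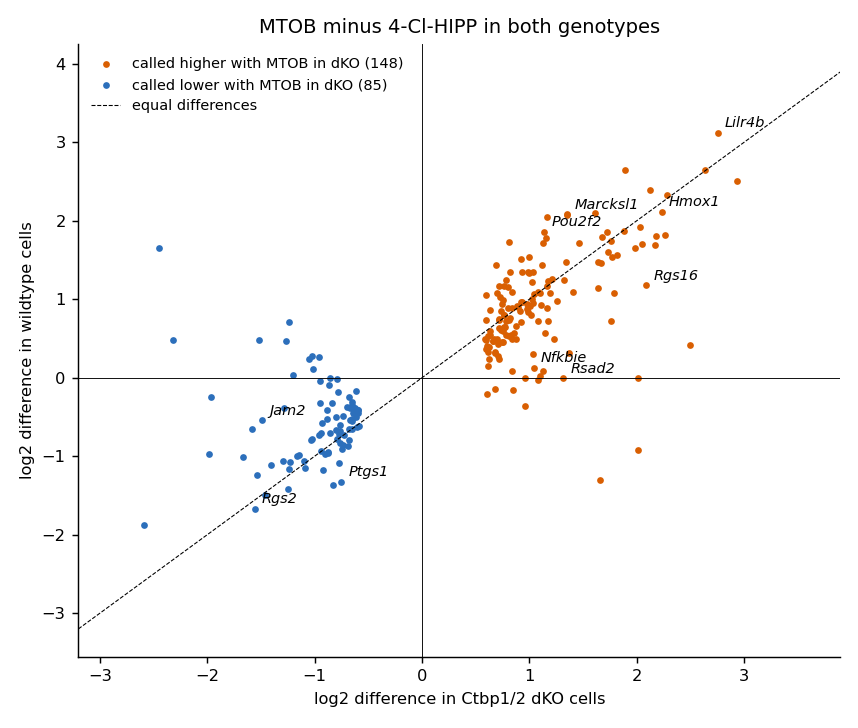
Log2 difference between MTOB and 4-Cl-HIPP in Ctbp1/2 dKO cells (x axis) and in wildtype cells (y axis) for the 233 genes called in dKO cells, with equal differences on the dashed line. Of the 233 genes, 212 share the sign, and Hmox1 and Lilr4b lie near the line while Rsad2 and Nfkbie lie near 0 in wildtype cells.

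A test of the difference itself, dKO minus wildtype over the 12 inhibitor-treated samples, called 14 genes (0.0855%) at an adjusted p-value below 0.05, of which 8 were among the dKO calls. Pou2f2 (OCT2), a POU transcription factor, was at 51.3, 50.7 and 52.9 TPM with MTOB and 23.9, 21.0 and 23.7 TPM with 4-Cl-HIPP in dKO cells. In wildtype cells it was at 88.7, 83.5 and 85.0 TPM against 22.5, 22.3 and 23.6 TPM. The 4-Cl-HIPP samples of both genotypes overlapped, and the MTOB samples did not. The log2 difference between the compounds was thus 1.14 in dKO and 1.86 in wildtype cells, apart by -0.72 (SE 0.07, adjusted p = 0.0106, limma, Benjamini-Hochberg).

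Marcksl1, Cpd, Abr, Lyn and Stk10 followed the same order, with a smaller difference between the compounds in dKO cells. The Src family kinase Lyn was at 71.3 to 73.5 TPM with MTOB and 67.9 to 68.5 TPM with 4-Cl-HIPP in dKO cells, a difference of 0.08 (95% interval 0.01 to 0.15), against 0.63 in wildtype cells. The carboxypeptidase Cpd differed by 0.72 in dKO and 1.17 in wildtype cells and the GTPase regulator Abr by 0.52 and 1.16. The interferon effector Rsad2 differed by 1.31 in dKO cells and 0.00 in wildtype cells, where it was at or below 0.191 TPM in all 6 inhibitor-treated samples. Ptgs1 differed by -0.75 in dKO cells, from a level of 146 to 166 TPM with 4-Cl-HIPP, and by -1.32 in wildtype cells, from 15.9 to 17.4 TPM. The number of such genes was between 1 and 10 when single samples were left out.

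**Figure D5:**
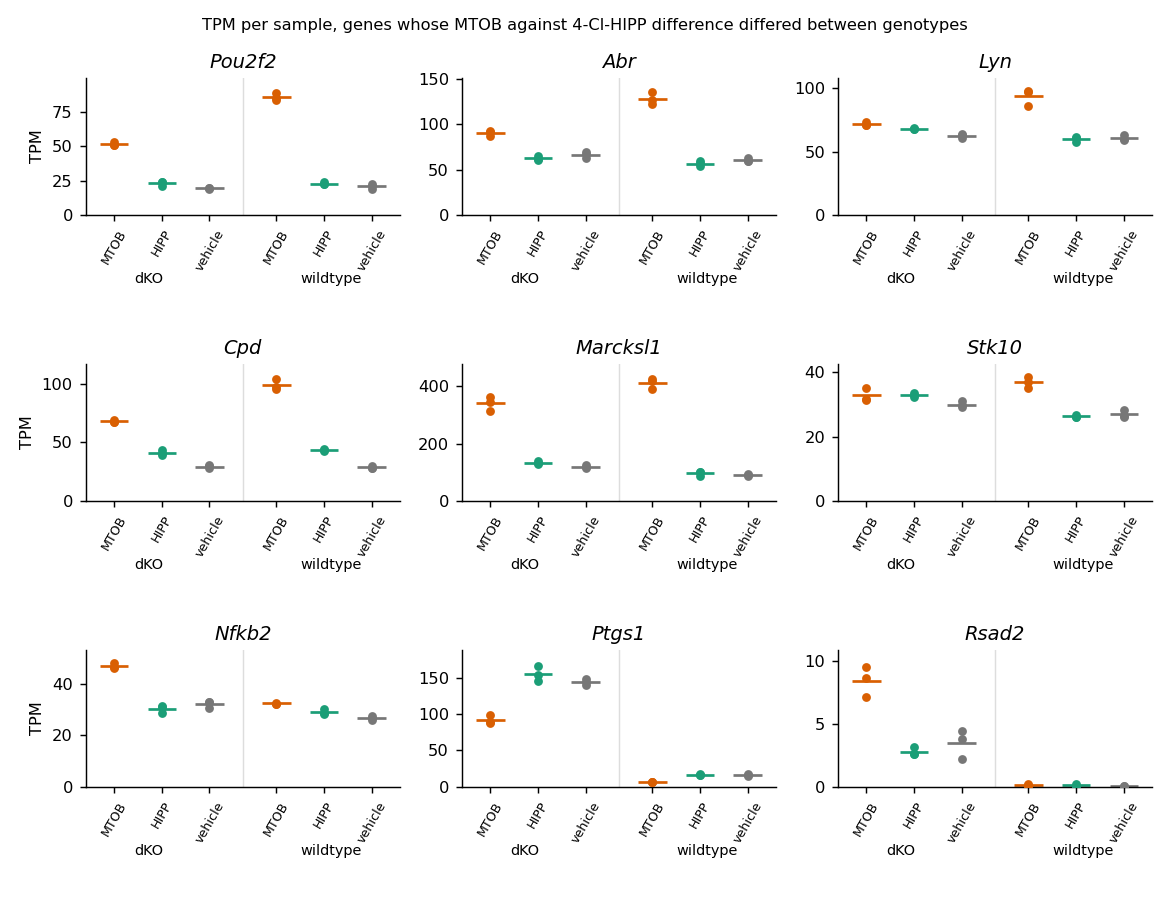
TPM (y axis, from 0) in each sample for 9 genes whose difference between MTOB and 4-Cl-HIPP was not the same in both genotypes, with dKO samples left and wildtype samples right of the grey line and bars at the mean of 3 samples. Pou2f2, Abr, Lyn, Cpd and Marcksl1 have their highest points in wildtype cells with MTOB, while Ptgs1 and Rsad2 have higher levels in dKO cells. Nfkb2 is higher in dKO cells with MTOB and vehicle, and its 4-Cl-HIPP points overlap between genotypes.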

How the data were processed

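RNA-seq libraries of J774.1 cells were prepared by the authors with an unstranded kit, so a gene and its antisense partner cannot be told apart. Per the labels and methods, they quantified transcripts with Salmon 1.9.0 against Gencode M28 (GRCm39) and summarised them per gene as TPM, which are the deposited values used here. The deposited mean normalized count per gene (a signal value, made by the authors with DESeq2 1.44.0) served only for the expression limit and the variance trend. It pools all samples of the study, vehicle and wildtype included, whereas the TPM tested were those of the compared samples alone. The authors' deposited log2 fold changes and adjusted p-values against vehicle were not used. TPM sums were 999766 to 999897 per sample, and read depth is unknown.

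TPM were transformed as log2(TPM + 1) and tested with limma 3.58.1 (R 4.3.3; moderated statistics with a variance trend on the mean normalized count, two-sided, Benjamini-Hochberg adjustment). Genes had to exceed the 10th percentile of the mean normalized count (0.222), which left 16383 of 18204. Each contrast used its own 6 samples (4 residual degrees of freedom), and the difference between genotypes used 12. The scripts were tested on simulated data. Alternatives concerned the samples in the fit, the pseudocount, the filter, the trend, the scaling, the fold, left-out samples and a replicate block.

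Named genes were the 12 called genes per direction with the largest difference (mean TPM of at least 5, no overlap, a symbol under 1 identifier), the 5 per direction with the smallest p-value, called and well-known list members, genes the study labels, the 5 genes with the smallest p-value between genotypes, and Ctbp1 and Ctbp2. Members and lists were chosen with earlier results of these data known. List genes below the limit (among them Il1b and Il10) or not in the table (among them Il6) were not analysed here. The labels name polyA RNA whereas the methods mention depletion of ribosomal RNA.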

Additional observations from a re-analysis of the deposited data

Results flagged for a closer look

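The difference between MTOB and 4-Cl-HIPP was not the same in Ctbp1/2 dKO and wildtype cells for 14 genes by limma with Benjamini-Hochberg adjustment over 16383 genes, and 1046 genes had an unadjusted p-value below 0.05. Values below are the log2 difference in dKO minus that in wildtype cells, with 3 samples in each of the 4 groups.

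Pou2f2 (-0.72, adjusted p = 0.0106), Abr (-0.64, adjusted p = 0.0207), Marcksl1 (-0.73, adjusted p = 0.0354), Lyn (-0.55, adjusted p = 0.0354), Cpd (-0.46, adjusted p = 0.0354) and Stk10 (-0.48, adjusted p = 0.0494) were negative. For all 6, the lowest MTOB sample of wildtype cells lay above the highest MTOB sample of dKO cells. Marcksl1 was at 363, 314 and 344 TPM with MTOB and 132, 127 and 138 TPM with 4-Cl-HIPP in dKO cells, and at 425, 419 and 390 TPM against 87.3, 101 and 99.8 TPM in wildtype cells. Abr, a regulator of small GTPases, was at 86.7, 91.6 and 93.0 TPM against 65.3, 61.3 and 61.1 TPM in dKO cells and at 135, 122 and 127 TPM against 57.4, 53.5 and 59.0 TPM in wildtype cells. Stk10, a lymphocyte-oriented kinase, was at 31.9, 31.5 and 35.1 TPM against 33.7, 32.9 and 32.4 TPM in dKO cells and at 35.2, 37.1 and 38.7 TPM against 26.0, 26.1 and 26.9 TPM in wildtype cells.

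Rsad2 (1.32, adjusted p = 0.0488), Nfkb2 (0.47, adjusted p = 0.0494) and Ptgs1 (0.57, adjusted p = 0.0494) were positive. In wildtype cells Rsad2 was at or below 0.191 TPM in all inhibitor-treated samples and listed at 0 in MTOB replicate 1. At that level log2(TPM + 1) leaves little room for a wildtype difference, so its value depends on the floor. Nfkb2 was at 48.0, 46.4 and 46.1 TPM with MTOB and 31.3, 31.1 and 28.5 TPM with 4-Cl-HIPP in dKO cells, and at 32.6, 32.3 and 32.3 TPM against 30.4, 28.4 and 28.9 TPM in wildtype cells. Ptgs1 was lower with MTOB in both genotypes, and its level with 4-Cl-HIPP was 146 to 166 TPM in dKO and 15.9 to 17.4 TPM in wildtype cells.

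The other 5 genes had samples listed at 0 and carry no usable fold. Commd1b (5.76, adjusted p = 0.0354), Gm43809 (5.39, adjusted p = 0.0449), Gm49388 (2.93, adjusted p = 0.0354), Gm43555 (2.02, adjusted p = 0.0494) and 7SK (1.43, adjusted p = 4.95e-06) were positive. Commd1b was at 4.67, 20.1 and 1.72 TPM with MTOB and listed at 0 with 4-Cl-HIPP in dKO cells, with the reverse in wildtype cells, where it was listed at 0 with MTOB and at 6.74, 5.70 and 8.44 TPM with 4-Cl-HIPP. It has a near-identical copy, so its reads are uncertain. The symbol 7SK stands for 16 identifiers in the table. The one that passed here was at 1.65 to 1.74 TPM in the wildtype 4-Cl-HIPP samples, listed at 0 in the other 9 inhibitor-treated samples, and at 1.50 and 1.56 TPM in 1 vehicle sample of each genotype. Another was called higher with MTOB in dKO cells, at 1.95 to 2.28 TPM against 0 in the 3 4-Cl-HIPP samples.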

How the results depend on the processing

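The alternatives were followed for 84 genes, namely the genes named by rule and the called list members. Uncalled list members given with an adjusted p-value, such as Ftl1, Fth1 and Actb, were not followed singly. Of the 84, 0 reversed their direction under any alternative. Between 80 and 84 kept their side of the threshold in each setting other than the replicate block and left-out samples. Of the 233 calls, 211 were shared with the fit of all 18 samples, which called 374 genes (159 lower), and 211 with the fit of the 12 inhibitor-treated samples, which called 145 lower. The count of genes differing between genotypes was 14 and became 22 with all 18 samples, 9 with a pseudocount of 2 TPM and 1 without a variance trend. The cause of these changes was not tested.

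Leaving out 1 sample left 82 to 163 calls in dKO cells (55 to 116 higher and 20 to 47 lower), 177 to 212 of 302 in wildtype cells and 1 to 10 between genotypes. These fits have fewer samples. Same-numbered samples did not deviate together (correlations of -0.09, 0.00 and -0.06 for replicates 1, 2 and 3), so the numbers were not taken as pairs. With a replicate block, which costs residual degrees of freedom, limma called 0 genes in dKO cells (0 higher and 0 lower). There, 2437 had an unadjusted p below 0.05 by limma against 2928 without the block. The block left 60 calls in wildtype cells and 1 between genotypes. Of the 84 genes followed, 76 lost their call, and the other 8 had not been called in the main fit. Pmepa1 was called lower with 12 or 18 samples in the fit or a stricter filter (adjusted p = 0.0152 to 0.0383, limma, Benjamini-Hochberg). With no depth in the files, a transcript listed at 0 cannot be given a detection limit.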

Other observations

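Selenoproteins, a list chosen after the values were seen and therefore given without a test of the list, differed in both directions. Of 17 tested, 4 were called higher and 1 lower with MTOB in Ctbp1/2 dKO cells, with a median log2 difference of 0.07. Gpx1, the cytosolic glutathione peroxidase, was at 491, 455 and 491 TPM with MTOB and 255, 260 and 240 TPM with 4-Cl-HIPP (difference 0.93, SE 0.05, adjusted p = 0.00307, limma, Benjamini-Hochberg). Selenow was at 79.4, 74.6 and 80.9 TPM against 24.8, 18.4 and 23.9 TPM (difference 1.77, SE 0.13, adjusted p = 0.00586) and Selenoh at 129, 121 and 129 TPM against 54.6, 56.9 and 62.4 TPM (difference 1.11, SE 0.07, adjusted p = 0.00401). The 3 genes did not overlap between the compounds, and their calls were kept when each of the 6 samples was left out in turn. Txnrd1 is also an NRF2 target and was described above.

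Sephs2, which makes the selenium donor for selenocysteine, had the opposite sign, at 130, 122 and 111 TPM with MTOB against 195, 191 and 182 TPM with 4-Cl-HIPP (difference -0.65, SE 0.07, adjusted p = 0.0140, limma, Benjamini-Hochberg). Its call was lost when MTOB replicate 2 or any 4-Cl-HIPP sample was left out (0.0610 to 0.0773). Gpx4, the phospholipid hydroperoxidase, differed by -0.11 (adjusted p = 0.728).

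Of the 233 called genes, 180 belonged to none of the pathway and marker lists of the report. Snord17, a small nucleolar RNA and the lowest of them at -2.59, was listed at 0 in the 3 MTOB samples and at 3.66, 9.46 and 3.50 TPM with 4-Cl-HIPP.

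Adgre1 (F4/80), a macrophage receptor, was at 98.2, 107 and 101 TPM with MTOB and 32.0, 29.4 and 30.6 TPM with 4-Cl-HIPP in wildtype cells, against 11.5, 13.7 and 12.6 TPM and 12.3, 6.70 and 13.0 TPM in dKO cells. The groups did not overlap in wildtype cells and did in dKO cells. The difference between genotypes was -1.43 (SE 0.26) and did not pass (adjusted p = 0.128, limma, Benjamini-Hochberg).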
